A study of Mus musculus with 6 samples.

Results

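Guidance genes of the Slit, semaphorin, netrin and ephrin systems were examined in MC3T3-E1, an established pre-osteoblast line of the mouse, grown on a metal scaffold. The set was chosen by gene symbol alone: Slit and Robo genes, semaphorins of classes 3 to 7 and plexins, ephrins and Eph receptors, and netrins and Unc5 receptors, 66 genes in all, each with a probe on the array. Of these, 50 gave a signal that could be tested, among 15535 tested genes in all. RNA was taken after 3 days in 24-well plates on the De-HA scaffold, an iron, manganese and silicon alloy treated by dealloying and given a bioactive coating (n = 3), or on the original FeMnSi scaffold (n = 3). Dealloying and coating came together in De-HA, so their effects cannot be told apart, and no culture off a scaffold is among the samples. The labels do not say whether the 3 replicates of a group were separate cultures, so the p-values rest on a spread between samples that may be technical only.

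These 4 systems were named for steering axons, and all act outside the nervous system as well. Slits are secreted and bind Robo receptors, mostly to repel cells. Semaphorins are secreted or membrane-bound and bind plexins, the secreted class 3 usually with a neuropilin as co-receptor, and plexins act on small GTPases and the actin cytoskeleton. Ephrins and Eph receptors are both held at the cell surface and signal at contacts in both directions, the A ephrins through a lipid anchor and the B ephrins through a transmembrane chain. Netrins bind Dcc, neogenin and the Unc5 receptors. In bone, ephrin B2 with EphB4 links osteoclasts and osteoblasts, semaphorin 3A is made by osteoblasts, and semaphorin 4D of osteoclasts acts on plexin B1 of osteoblasts.

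Each sample was hybridised to 1 single-colour array, whose values are linear intensities. Signals are given as a percentage of the 75th percentile of all non-control spots of the same array, and are comparable between arrays for 1 gene but not between genes, whose probes differ. A probe was called well above background as the scanner software marked it, and such probes made up 63.5% (De-HA 1) to 74.4% (De-HA 2) of the array. Arrays that share a scan time are called a slide here, slide 1 (De-HA 1, 2 and 3 and FeMnSi 1) and slide 2 (FeMnSi 2 and 3). That each set was 1 physical slide was not read from the labels. Beside each pooled value stands the value within slide 1, the De-HA mean minus FeMnSi 1, which is also what a model with slide as a block estimates. Slide 2 holds FeMnSi arrays only and gives no value of its own. All 9 osteoblast-lineage markers were well above background on every array. At an adjusted p under 0.05 in limma 5 of them were higher in De-HA and 1 lower, beside 6.46% and 4.29% of all genes. Of 7 endothelial markers, Cdh5, Tek, Emcn and Tie1 were well above background on no array. The other 3, Flt1, Kdr and Pecam1, were so on all 6 arrays.

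In De-HA, 8 of the 50 guidance genes rose and 2 fell by limma with Benjamini-Hochberg adjustment over all genes at an adjusted p of 0.05. The genes that rose were Slit2, Epha4, Epha2, Plxna1, Sema6c, Plxnd1, Plxna2 and Efnb1, and Efnb3 and Sema3e fell, the last pair on signals close to background. Over all genes tested the share past the threshold was 10.7%, with 6.46% higher and 4.29% lower. At an unadjusted p under 0.05 there were 22 members, against 33.6% of all genes, and 2 members, Slit2 and Efnb3, had a fitted fold of 2 or more, against 1.27%. For Efnb3 that fold rests on De-HA signals not well above background on 2 of 3 arrays, and it was 1.55 with those raised to the floor. The median log2 fold change of the 50 was 0.29, against 0.10 for all genes, and 39 of the 50 were above 0, against 63.1% of all genes. The split depends on the scaling: after quantile normalization 5 members rose and 2 fell while the median of all genes moved to -0.01 (from 60.1% to 39.3% higher among all called genes), and with normexp background correction 10 rose and none fell. The arrays of the groups did not overlap for 20 members, 16 of them higher and 4 lower, where the share over all genes was 39.1%. All 10 changes kept their sign within slide 1, which had to be so because the arrays of the groups did not overlap. In the model with slide as a block Slit2 and Sema3e alone passed, 2 of 50 against 1.16% of all genes. Sema3e was kept through FeMnSi alone and so had to differ, and in the pooled fit with its dim signals raised to the floor it gave -0.27 (adjusted p = 0.531), so Slit2 is the one of the pair measured in both groups. Without FeMnSi 1 the count was 25, where 29.7% of all genes passed. Dropping De-HA 1 left 5, De-HA 2 left 3, De-HA 3 left 1, FeMnSi 2 left 5 and FeMnSi 3 left 2, where 1.46% to 3.37% of all genes passed. Slit2 was the one member past the threshold in all 6 of these fits. In bulk RNA, fewer cells of a kind and less RNA per cell cannot be told apart.

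**Figure D1:**
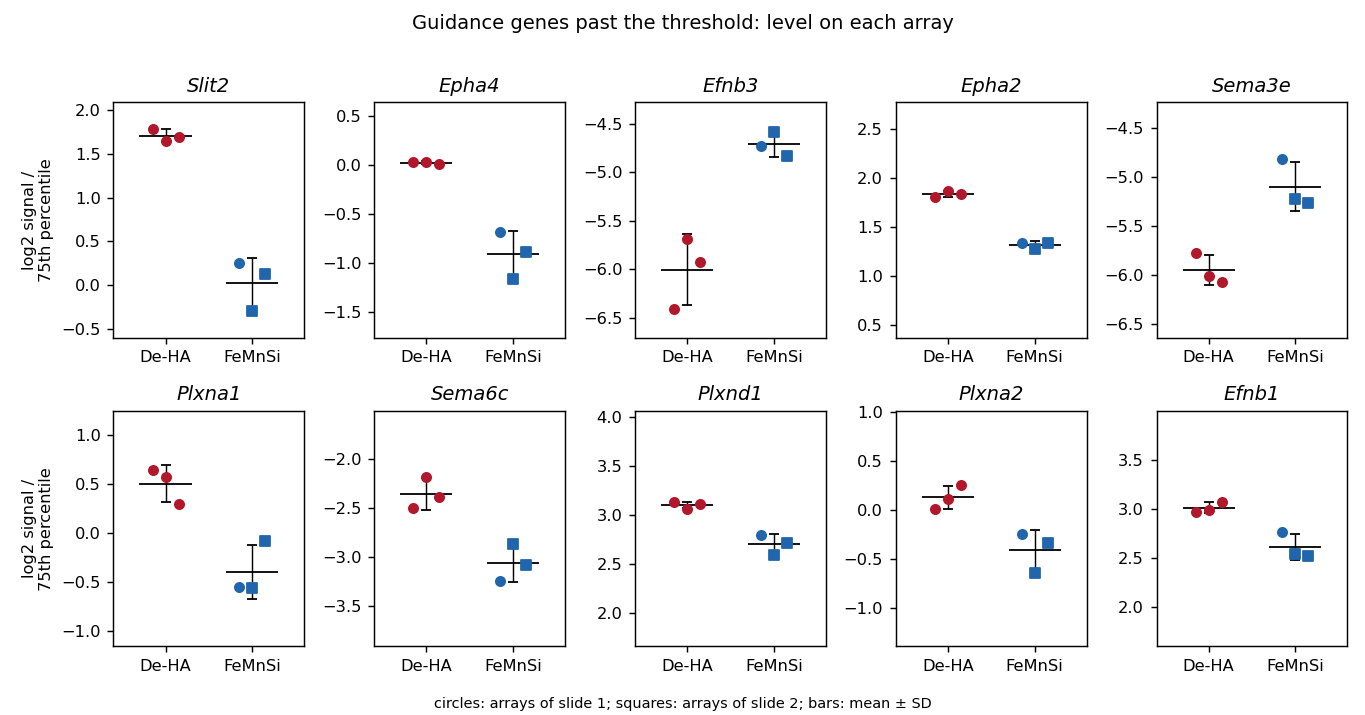
Level of the 10 guidance genes past the threshold on each array, as log2 of the signal over the 75th percentile of the array (vertical axis, a window of similar height per gene), for De-HA (red) and FeMnSi (blue), with circles for slide 1, squares for slide 2, and bars for the mean and SD of 3 arrays. The De-HA arrays lie apart from the FeMnSi arrays in each panel, by most for Slit2 (log2 fold change 1.69), and Efnb3 and Sema3e lie near the bottom of the signal range.

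Slit2 encodes a large secreted protein with leucine-rich and EGF-like repeats that binds Robo receptors. Its signal was 346%, 314% and 323% of the 75th percentile in De-HA, and 119%, 81.2% and 109% in FeMnSi, with replicates 1, 2 and 3 in that order throughout. All De-HA arrays were far above all FeMnSi arrays, and the spread within De-HA was small. The gene rose 3.22-fold (log2 fold change 1.69 ± 0.15 SE, adjusted p = 0.00316 in limma). Within slide 1 the difference was 1.46, with an adjusted p of 0.0311 with the slide as a block. With each array left out in turn it ran from 1.52 to 1.80, and the adjusted p from 0.00438 to 0.0259.

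The other Slit genes did not pass. Slit3, a paralog with the same kind of domains, was at 6.12%, 4.51% and 4.65% in De-HA and 3.94%, 3.28% and 3.60% in FeMnSi. The groups did not overlap, and the log2 fold change was 0.49 ± 0.14 SE (adjusted p = 0.0724 in limma, 0.36 within slide 1). Slit1, better known from the nervous system, was at 81.5%, 96.6% and 56.0% in De-HA and 154%, 48.2% and 69.9% in FeMnSi. FeMnSi 1 was the highest array and FeMnSi 2 the lowest, and the difference of -0.08 ± 0.42 SE lay within that spread (-1.01 within slide 1, 0.39 without FeMnSi 1).

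On the receptor side, Robo2 was the only Robo gene with a signal that could be tested. It was at 34.2%, 47.1% and 46.8% in De-HA and 30.0%, 16.6% and 22.8% in FeMnSi. Every De-HA array was above every FeMnSi array, with FeMnSi 1 close below De-HA 1. The log2 fold change of 0.91 ± 0.23 SE missed the threshold (adjusted p = 0.0538 in limma, 0.50 within slide 1) and passed with normexp background correction (adjusted p = 0.0196). Its other probe gave 0.30. Robo1 and Robo4, the latter a receptor of endothelial cells, were well above background on no array, and Robo3 on 2 of 6.

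Of the Eph receptors, Epha4 and Epha2 rose, both receptor tyrosine kinases that bind mainly A ephrins. Epha4, which also binds B ephrins, was at 103%, 102% and 101% in De-HA and 62.6%, 44.9% and 54.1% in FeMnSi. The De-HA arrays were nearly alike and all above FeMnSi. Epha4 rose 1.91-fold (log2 fold change 0.93 ± 0.13 SE, adjusted p = 0.0118 in limma). Within slide 1 it gave 0.70 (adjusted p = 0.0723 with slide as a block). The call was lost without De-HA 3 or FeMnSi 3, with an adjusted p of at most 0.0593.

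Epha2 was at 351%, 365% and 358% in De-HA and 254%, 243% and 253% in FeMnSi, tight in both groups. It rose 1.43-fold (0.52 ± 0.08 SE, adjusted p = 0.0138 in limma), with 0.50 within slide 1 (adjusted p = 0.0857 with slide as a block). It did not pass without De-HA 2, De-HA 3 or FeMnSi 3 (adjusted p up to 0.0726). Among the Eph receptors that did not pass, Epha1 had the smallest p, at 4.27%, 4.29% and 4.46% in De-HA and 3.78%, 2.64% and 2.45% in FeMnSi (0.58 ± 0.17 SE, adjusted p = 0.0691, 0.20 within slide 1, adjusted p = 0.0427 with normexp). The groups did not overlap for Epha1 either. Of 14 Eph receptors on the array 9 were tested, and 2 rose and none fell at this threshold, beside 10.7% of all genes. At an unadjusted p under 0.05 there were 4, beside 33.6% of all genes. The 9 log2 fold changes ran from 0.27 to 0.95. Epha3, Epha6, Epha8 and Ephb1 were well above background on no array, and Epha10 on 2.

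All 8 ephrins, the ligands of these receptors, were tested, and 1 rose and 1 fell, beside 6.46% and 4.29% of all genes. Efnb1, whose loss in people causes craniofrontonasal syndrome, was at 782%, 793% and 841% in De-HA and 676%, 582% and 572% in FeMnSi. The groups were apart, with FeMnSi 1 the closest to De-HA. Efnb1 rose 1.32-fold (0.40 ± 0.10 SE, adjusted p = 0.0472 in limma, 0.25 within slide 1). With 1 array left out it passed without FeMnSi 1 alone (adjusted p up to 0.168 otherwise), and it did not pass after quantile normalization (0.27, adjusted p = 0.0876).

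Efnb3 was at 1.18%, 1.94% and 1.65% in De-HA and 3.78%, 4.18% and 3.52% in FeMnSi, and it was well above background on 1 of 3 De-HA arrays. The De-HA arrays were all lower, and the gene fell 2.45-fold as fitted (-1.29 ± 0.19 SE, adjusted p = 0.0125 in limma, -1.28 within slide 1). With the 2 dim De-HA signals raised to the lowest signal well above background on their array, the difference was -0.63 and did not pass (adjusted p = 0.144 in limma). On De-HA 1 that floor, at 3.83%, lay above the FeMnSi 1 and FeMnSi 3 signals, so De-HA 1 sets no bound against them. With normexp the difference was -0.11 (adjusted p = 0.313). The call was also lost without De-HA 3 or FeMnSi 3 (adjusted p up to 0.0582).

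Efnb2 and its receptor gene Ephb4, the pair studied in the crosstalk of osteoclasts and osteoblasts, did not pass. Efnb2 was at 82.4%, 80.7% and 89.1% in De-HA and 83.8%, 76.8% and 81.2% in FeMnSi, overlapping groups (0.06 ± 0.09 SE, -0.03 with median scaling). Ephb4 was at 66.6%, 75% and 71.2% in De-HA and 75.3%, 48.7% and 55.1% in FeMnSi (0.27 ± 0.17 SE, -0.09 within slide 1). FeMnSi 1 was the highest of all 6 arrays for Ephb4. The 5 A ephrins ran from -0.10 for Efna1 to 0.31 for Efna4, which had the smallest p among the ephrins that did not pass (0.31 ± 0.11 SE, adjusted p = 0.105 in limma). Efna4 was at 27.4%, 27.0% and 24.2% in De-HA and 23.7%, 20.2% and 19.4% in FeMnSi, narrowly apart.

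Plexins, the semaphorin receptors, gave 3 rises and no fall at the threshold among 8 tested of 9, with 6 at an unadjusted p under 0.05. The shares over all genes were 10.7% and 33.6%. Plxna1, which with a neuropilin receives class 3 semaphorins, was at 156%, 149% and 122% in De-HA and 68.1%, 68.0% and 94.7% in FeMnSi. FeMnSi 3 was the highest of its group and still below all De-HA arrays. Plxna1 rose 1.87-fold (log2 fold change 0.90 ± 0.16 SE, adjusted p = 0.0245 in limma, 1.06 within slide 1, adjusted p = 0.0857 with slide as a block). It passed without FeMnSi 1 or FeMnSi 3 but not without any other array (adjusted p up to 0.0839).

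Plxnd1, the receptor of semaphorin 3E best known from blood vessels, was at 875%, 836% and 867% in De-HA and 696%, 602% and 657% in FeMnSi. It rose 1.32-fold (0.40 ± 0.09 SE, adjusted p = 0.0390 in limma), and its other probe gave 0.29. Plxna2, a receptor of class 3 and class 6 semaphorins, was at 101%, 108% and 120% in De-HA and 84.4%, 64.3% and 79.5% in FeMnSi and rose 1.45-fold (0.53 ± 0.13 SE, adjusted p = 0.0470 in limma). Both were apart between groups, and with 1 array left out both passed without FeMnSi 1 alone. Within slide 1 they gave 0.30 and 0.37, and neither passed after quantile normalization (adjusted p = 0.10 and 0.0545) or median scaling.

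The remaining plexins did not pass. Plxnb3 had the smallest p of these, at 3.44%, 2.42% and 3.25% in De-HA and 2.35%, 2.03% and 1.58% in FeMnSi, with 2 of 3 arrays of each group well above background (0.61 ± 0.19 SE, adjusted p = 0.0822, 0.35 within slide 1). Plxnb1, the receptor of semaphorin 4D, gave 0.24 ± 0.15 SE (adjusted p = 0.295). Plxnc1, the receptor of semaphorin 7A, was at 18.5%, 17.9% and 20.4% in De-HA and 18.1%, 19.3% and 19.5% in FeMnSi, with overlapping groups. Its other probe gave 0.47. Plxna4 was well above background on no array by either of its probes.

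Of the semaphorins themselves 17 of 20 were tested, and 1 rose and 1 fell, beside 6.46% and 4.29% of all genes. Sema6c, a transmembrane semaphorin, was at 17.8%, 22.1% and 19.1% in De-HA and 10.6%, 13.7% and 11.8% in FeMnSi. The groups were apart, with FeMnSi 1 the lowest array. Sema6c rose 1.63-fold (0.71 ± 0.13 SE, adjusted p = 0.0257 in limma, 0.89 within slide 1). Its adjusted p was 0.0655 with slide as a block, and up to 0.0931 with an array other than FeMnSi 1 or 2 left out.

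Sema3e, the secreted ligand of plexin D1, was at 1.83%, 1.55% and 1.49% in De-HA, where no array was well above background, and at 3.56%, 2.67% and 2.61% in FeMnSi, where all 3 were. It is the one member that passed the filter through 1 group alone, and so had to differ. With the De-HA signals raised to the floor of their arrays it was 1.2-fold lower (-0.27 ± 0.29 SE, adjusted p = 0.531 in limma). The floor of De-HA 1, at 3.83%, lay above every FeMnSi signal, so that array sets no bound on the fall. The fitted fall (-0.85 ± 0.15 SE, adjusted p = 0.0222 in limma, -1.14 within slide 1, adjusted p = 0.0343 with slide as a block) does not test the difference from the floor. With normexp the difference was -0.0025 (adjusted p = 0.988), and the call held without De-HA 1 or FeMnSi 1 but not without any other array.

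Of the 6 tested class 3 semaphorins, 4 were below 0 in the pooled values, Sema3e among them, with a median of -0.16, and Sema3f turned to 0.036 without De-HA 1. Sema3c was at 4.73%, 7.22% and 5.28% in De-HA and 7.22%, 7.77% and 7.61% in FeMnSi and did not pass (-0.41 ± 0.16 SE, adjusted p = 0.127). De-HA 2 lay level with FeMnSi 1. Sema3a, the osteoblast-made semaphorin, was at 956%, 982% and 1001% in De-HA and 1008%, 827% and 904% in FeMnSi. FeMnSi 1 was above every De-HA array, and the value of 0.11 ± 0.10 SE turned to -0.06 after quantile normalization and -0.04 within slide 1. The 4 tested members of class 4, both of class 5 and the 4 of class 6 were above 0 in the pooled values, though Sema4b turned to -0.02 with median scaling and Sema4b, Sema5a and Sema6d lay below 0 within slide 1. In class 5, Sema5b had the smallest p, at 4.01%, 3.14% and 2.69% in De-HA and 2.71%, 1.88% and 1.58% in FeMnSi (0.69 ± 0.23 SE, adjusted p = 0.0943), with 3 of 6 arrays well above background. Sema7a gave 0.04 ± 0.19 SE, and -0.28 within slide 1. Sema4d and Sema3d were well above background on 2 arrays and 1 array, and Sema4f on none.

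Netrins and their receptors gave no change past the threshold in limma, and none of the 4 tested had an unadjusted p under 0.05. Over all genes these shares were 10.7% and 33.6%. Ntn1, the founding netrin, was at 103%, 114% and 119% in De-HA and 123%, 122% and 138% in FeMnSi, all De-HA arrays lower (-0.19 ± 0.10 SE, adjusted p = 0.219, 0.14 by its other probe). Unc5b, a netrin receptor also found on endothelial cells, was at 1303%, 1324% and 1444% in De-HA and 1512%, 1288% and 1368% in FeMnSi. Its groups overlapped (-0.03 ± 0.10 SE). Ntn3 gave 0.19 ± 0.12 SE. Ntn4, Ntn5, Unc5a and Unc5d were not tested, with at most 2 arrays well above background.

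**Figure D2:**
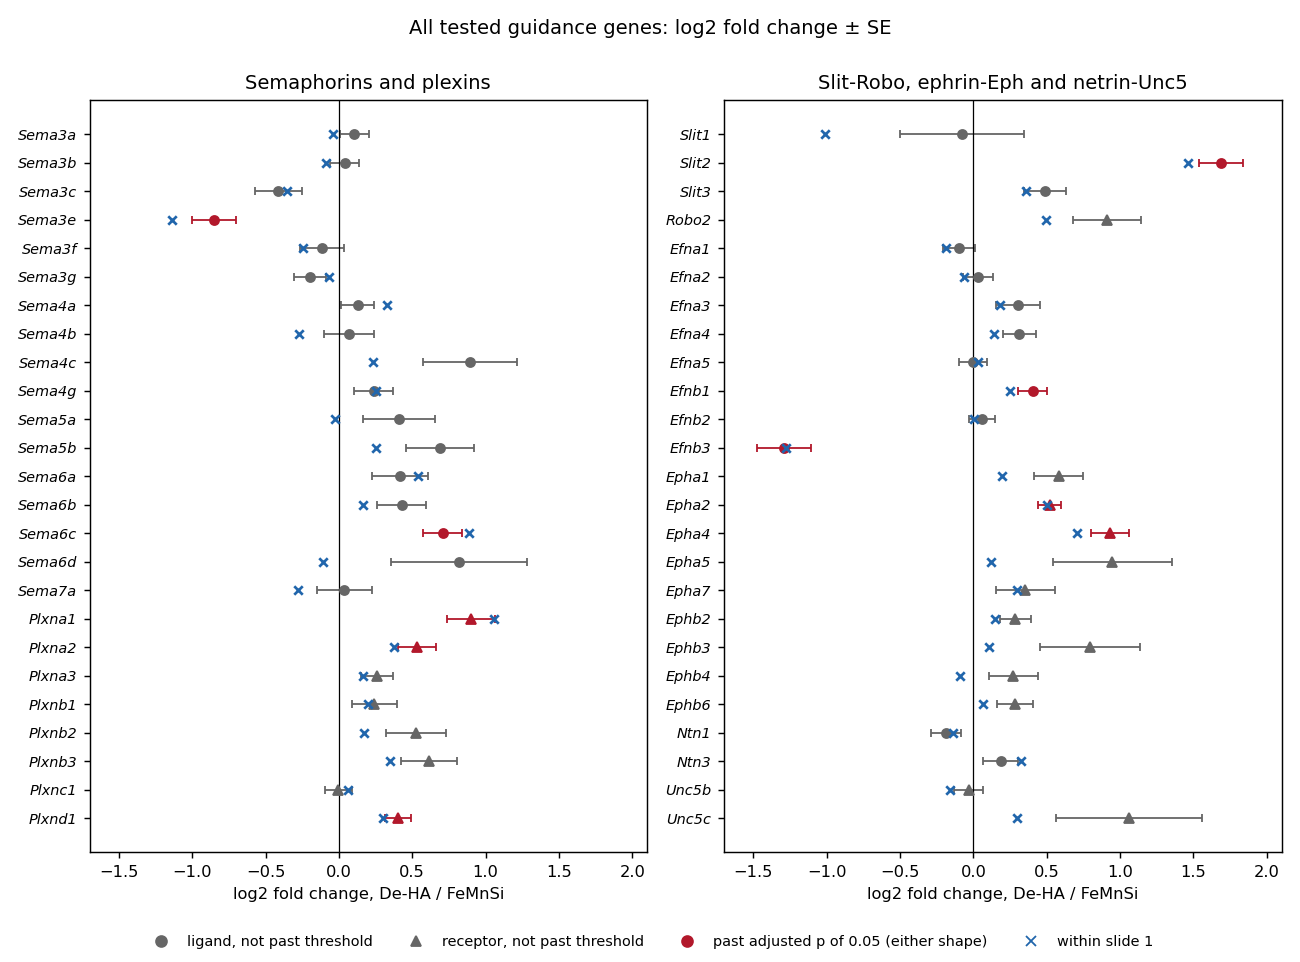
Log2 fold change of De-HA over FeMnSi with its standard error for the 50 tested guidance genes (horizontal axis), circles for ligands and triangles for receptors, red where the adjusted p is under 0.05, with a blue cross for the value within slide 1. Of the 20 receptors 18 lie to the right of 0, and several crosses, such as those of Sema6d, Epha5 and Ephb3, lie near 0 where the pooled value is far from it.

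Sorted by role, 5 of the 20 tested receptors rose and none fell at the threshold, and 11 had an unadjusted p under 0.05, beside 10.7% and 33.6% of all genes. Of the 30 ligands, 3 rose and 2 fell, and 11 also had an unadjusted p under 0.05. The receptors' median was 0.52 and that of the ligands 0.12, against 0.10 for all genes. Above 0 were 18 receptors and 21 ligands, where the share of all genes was 63.1%. Within slide 1 the same medians were 0.20 for receptors, -0.01 for ligands and 0.05 for all genes. Receptor and ligand counts were not compared by a test.

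For a number of members, FeMnSi 1 lay above the other FeMnSi arrays. For 37 of the 50, FeMnSi 1 on slide 1 was above both FeMnSi 2 and FeMnSi 3 on slide 2, against 49.9% of all genes. For 5 members, namely Slit1, Sema6d, Epha5, Unc5c and Ephb3, FeMnSi 1 was more than 1 log2 unit above the mean of the other FeMnSi arrays, as it was for 1.92% of all genes, and Sema4c was just under that. These 6 were picked after their values were seen.

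Epha5, an Eph receptor of the nervous system, has 2 probes, 1 of them well above background on no array. By the other it was at 3249%, 3846% and 3585% in De-HA and at 3271% on FeMnSi 1, but at 952% and 2011% on FeMnSi 2 and 3. FeMnSi 1 thus lay inside the De-HA range, and the pooled value of 0.95 ± 0.41 SE (adjusted p = 0.154) stood against 0.12 within slide 1. Ephb3 ran the same way, with 5780%, 6911% and 6773% in De-HA against 6005%, 2169% and 3962% in FeMnSi (0.80 ± 0.34 SE, 0.11 within slide 1). Sema4c, a ligand of plexin B2, was at 11490%, 12152% and 12564% in De-HA and 10284%, 3933% and 6760% in FeMnSi (0.89 ± 0.32 SE, 0.23 within slide 1). Sema6d was at 552%, 776% and 720% in De-HA and 729%, 183% and 423% in FeMnSi, and its value of 0.82 ± 0.46 SE became -0.11 within slide 1. The other probes of Sema6d and Unc5c were well above background on 2 arrays and 1 array and were not used. Unc5c, at 4.76%, 3.33% and 6.01% in De-HA and 3.73%, 0.978% and 2.90% in FeMnSi, gave 1.06 ± 0.50 SE and 0.29. Its FeMnSi 2 signal was not well above background and lay below the floor of that array, 1.72%. Raised to that floor, it gave a pooled value of 0.79 (adjusted p = 0.142 in limma). In each of these 5, FeMnSi 2 was the lowest array of all. On the log2 scale FeMnSi 3 lay nearer to FeMnSi 1 than to FeMnSi 2 in all 5. Whether the slide takes part in these differences was not tested, since slide 2 holds no De-HA array.

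**Figure D3:**
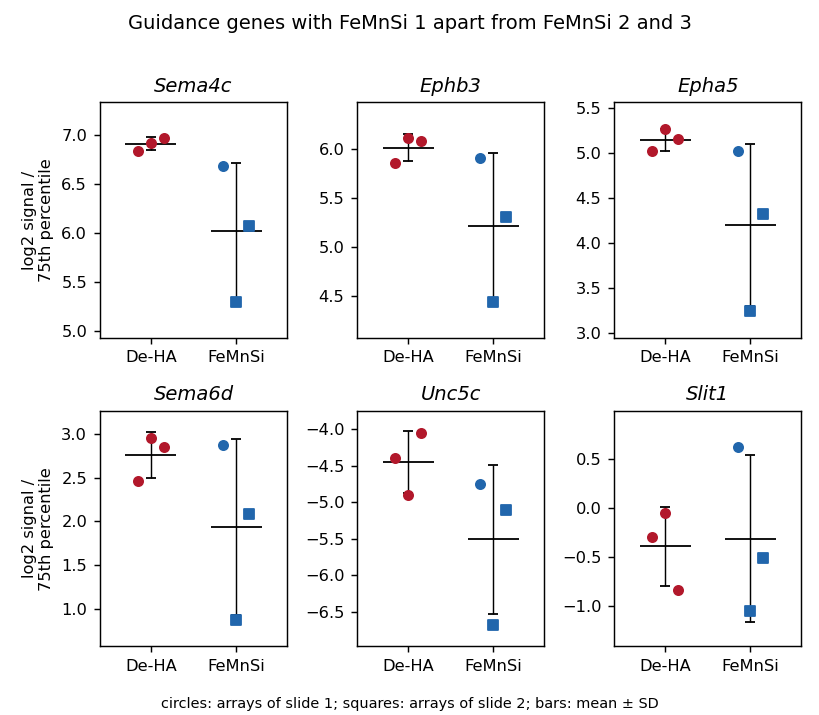
Level on each array of 6 guidance genes with FeMnSi 1 (blue circle, slide 1) above FeMnSi 2 and 3 (blue squares, slide 2), as log2 of the signal over the 75th percentile of the array (vertical axis), with De-HA in red and bars for the mean and SD of 3 arrays. FeMnSi 2 is the lowest array in each panel, and FeMnSi 3 lies between FeMnSi 1 and FeMnSi 2. FeMnSi 1 lies at or near the De-HA arrays for Sema4c, Ephb3, Epha5, Sema6d and Unc5c, and above them for Slit1.

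The co-receptors, ligand modulators and intracellular transducers of these systems were followed as a list of 56 symbols, 50 of which were tested. Of these, 8 rose and 1 fell, beside 6.46% and 4.29% of all genes, and the median was 0.17, against 0.10 for all genes. After quantile normalization the partners' median was 0.0095 with 25 of 50 above 0, against -0.01 for all genes, and the same counts of 8 and 1 passed. Nrp2, the neuropilin that joins plexin A receptors in binding class 3 semaphorins, was at 748%, 762% and 712% in De-HA and 416%, 376% and 393% in FeMnSi. The groups stood far apart, and Nrp2 rose 1.88-fold (0.91 ± 0.09 SE, adjusted p = 0.00373 in limma, 0.83 within slide 1, adjusted p = 0.0373 with slide as a block). Neo1, which encodes neogenin, a receptor of netrins and repulsive guidance molecules, rose 1.35-fold (0.44 ± 0.09 SE, 0.37 within slide 1).

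Among the transducers, Vav3, a guanine nucleotide exchange factor that acts below Eph receptors, was at 12.7%, 11.6% and 13.4% in De-HA and 30.7%, 32.7% and 32.1% in FeMnSi. It fell 2.54-fold (-1.34 ± 0.09 SE, adjusted p = 0.00145 in limma, -1.29 within slide 1, adjusted p = 0.0171 with slide as a block). Flrt3, a membrane protein that binds Unc5 receptors, rose 1.66-fold, from 417% to 458% in FeMnSi to 715% to 738% in De-HA. Dpysl3, of the family of collapsin response mediators that act below semaphorins, rose 1.74-fold (0.80 ± 0.11 SE, 0.63 within slide 1), and Farp2, an exchange factor bound by plexin A1, 1.65-fold (0.72 ± 0.11 SE, 0.56 within slide 1). Cap1, an actin regulator, was at 304%, 317% and 309% in De-HA and 137%, 194% and 203% in FeMnSi, with FeMnSi 1 the lowest. It rose 1.77-fold (0.82 ± 0.16 SE, adjusted p = 0.0272 in limma, 1.18 within slide 1, adjusted p = 0.0167 with slide as a block). Srgap3, a GTPase-activating protein of the Slit-Robo pathway, and Vasp, an actin assembly protein, rose 1.34-fold and 1.33-fold. Vav3, Nrp2 and Cap1 were the 3 of these 9 past the threshold in the slide-block model, where 1.16% of all genes passed. Vav3, Nrp2 and Flrt3 passed whichever array was left out, while Cap1, Neo1, Srgap3 and Vasp passed in 1 of the 6 such fits, Farp2 in 3 and Dpysl3 in 4. The partner count was 16 of 50 without FeMnSi 1 (32%), near the 29.7% of all genes in the same fit. Dropping De-HA 1 left 5, De-HA 2 left 3, De-HA 3 left 4, FeMnSi 2 left 5 and FeMnSi 3 left 3. In those fits 1.46% to 3.37% of all genes passed.

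**Figure D4:**
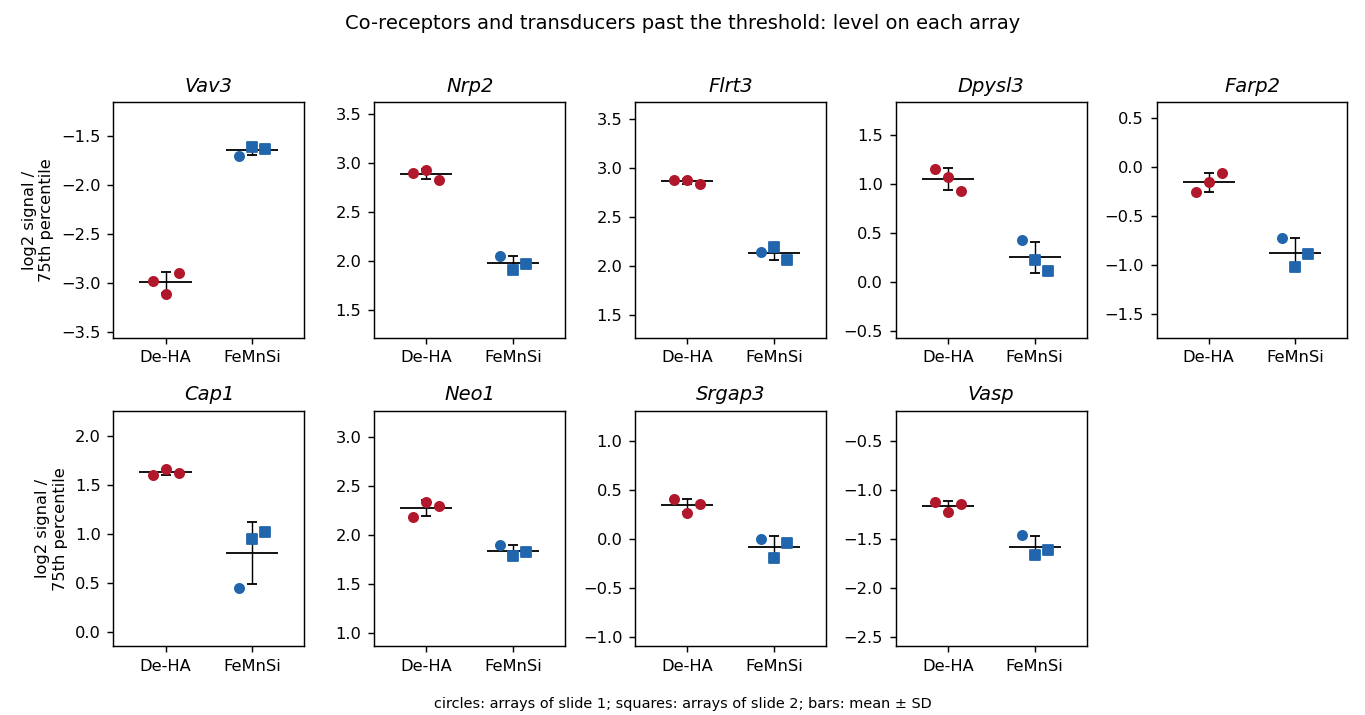
Level on each array of the 9 co-receptor and transducer genes past the threshold, as log2 of the signal over the 75th percentile of the array (vertical axis), De-HA in red and FeMnSi in blue, circles for slide 1, squares for slide 2, bars for the mean and SD of 3 arrays. Vav3 alone is lower in De-HA (log2 fold change -1.34), and Cap1 on FeMnSi 1 lies below the other FeMnSi arrays.

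The windows before the transcription start show what sequence lies beside the genes past the threshold. RefSeq promoter windows of GRCm38.p6 were on hand for 43 of the 50 tested members and for 8 of the 10 past the threshold, and the 250 bases before the start were read. Sema3e, whose window is among those shown, was kept through FeMnSi alone and so had to differ. The 4 windows shown belong to the members with the smallest p-values that had a window. They lie at chr5:47982905-47983154 (Slit2, plus strand), chr1:77515089-77515338 (Epha4, minus strand), chr4:141300971-141301220 (Epha2, plus strand) and chr5:14025026-14025275 (Sema3e, plus strand). Each is written 5′ to 3′ on the strand of its gene, and capitals mark a motif match. Both strands were searched for the TATA box, spelled TATAAA. The same was done for GGAATG, bound by TEAD factors. The RUNX motif was spelled TGTGGT. The motif of AP-1 factors was spelled TGANTCA, and the CArG box of serum response factor was searched too.
Slit2: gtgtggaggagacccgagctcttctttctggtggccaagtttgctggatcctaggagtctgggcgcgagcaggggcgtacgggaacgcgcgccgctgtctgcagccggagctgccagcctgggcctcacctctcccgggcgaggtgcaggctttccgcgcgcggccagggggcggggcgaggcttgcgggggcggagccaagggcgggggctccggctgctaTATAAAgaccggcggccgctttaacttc
Epha4: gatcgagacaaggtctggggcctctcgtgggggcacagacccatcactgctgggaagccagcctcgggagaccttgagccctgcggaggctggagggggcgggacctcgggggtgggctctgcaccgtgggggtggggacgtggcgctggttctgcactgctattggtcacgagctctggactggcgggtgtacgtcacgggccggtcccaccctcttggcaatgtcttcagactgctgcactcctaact
Epha2: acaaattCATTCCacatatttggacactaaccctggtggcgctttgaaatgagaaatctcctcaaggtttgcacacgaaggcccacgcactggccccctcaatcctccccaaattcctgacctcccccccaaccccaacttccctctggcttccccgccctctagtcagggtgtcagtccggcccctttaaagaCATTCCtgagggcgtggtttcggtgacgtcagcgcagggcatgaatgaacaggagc
Sema3e: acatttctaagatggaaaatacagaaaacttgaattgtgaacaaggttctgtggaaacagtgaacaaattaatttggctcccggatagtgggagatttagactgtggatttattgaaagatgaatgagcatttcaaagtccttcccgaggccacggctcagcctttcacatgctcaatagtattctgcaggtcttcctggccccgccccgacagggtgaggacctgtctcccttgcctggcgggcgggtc

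In these windows Slit2 has a TATAAA match that starts 28 bases before the start, a match held by 12.4% of the 32851 windows of this length in the table. Its window is also rich in G and C (69.6%, against a median of 52.4% over all windows and 65.2% over those of tested members). It holds 25 CG pairs, against medians of 6 and 16. Epha2 has GGAATG, read as CATTCC on the plus strand, at 243 and 56 bases before the start, and 12.6% of all windows hold it. Plxnd1 has the same match at 173 bases. No match to the RUNX, AP-1 or CArG motifs, held by 14.0%, 6.7% and 1.5% of all windows, lies in the windows of the 8 members past the threshold, and none of the matches overlap. A match or its absence describes the letters of this window only.

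Markers of other cell types were read beside these results. Over all genes 6.46% rose and 4.29% fell at the threshold, and 33.6% had an unadjusted p under 0.05. Of 6 tested neural markers none passed in limma (1 at an unadjusted p under 0.05), and their summed signal was 312% to 403% in De-HA and 257% to 306% in FeMnSi. Of 5 Schwann and glial markers 1 rose, S100b, by 1.32 on the log2 scale, and the summed signal was 1088% to 1264% against 468% to 529%. Of the 3 tested endothelial markers Kdr rose by 0.41, with sums of 715% to 801% against 750% to 847%. All 3 tested smooth muscle markers rose, with sums of 4690% to 4812% against 1681% to 1747%. For myeloid markers the sums were 107% to 124% against 68.3% to 90.8%, with 2 of 4 higher and 1 lower. Osteocyte markers gave 1 rise (Phex) and 1 fall (Dmp1) among 3, chondrocyte markers 1 rise (Col2a1, by 1.11) among 2, and adipocyte markers 1 fall (Fabp4, -1.99) among 3. Neither of the 2 tested epithelial markers passed in limma, though both had an unadjusted p under 0.05. The part of these markers in the guidance results was not tested.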

How the data were processed

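Gene expression was measured on 1 single-colour Agilent mouse array per sample, 3 De-HA and 3 FeMnSi. The deposited values used are linear intensity values per spot that Agilent Feature Extraction 11.0.1.1 had processed within each array, per the file headers and the submitters' processing notes. The deposited series matrix holds log2 values with a common median of 5.77 on every array and r of 0.997 to 1.00 with the log2 signal of the same scanner file. The sources used here do not say how it was made. It served as an alternative.

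Log2 signals were shifted by each array's 75th percentile, outlier spots dropped, spots of a probe averaged, and a probe kept when at least 3 of 6 arrays had it well above background. RefSeq transcript accessions named 27234 of 39429 probes (GRCm38.p6), and the brightest probe stood for its gene. Of the 66 members, 16 failed the filter, 10 of them with no array well above background. The test of De-HA against FeMnSi used limma 3.58.1 (R 4.3.3), checked on simulated data, with Benjamini-Hochberg adjustment over 15535 genes. The number of arrays limits the precision.

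Named were the members past the threshold and, in each of the 4 families, the 2 with the smallest p-values among the rest; other members were added with values known. The partner and marker lists were fixed by symbol, and the partner list holds older names of 2 of its genes. The members and lists were chosen with earlier results of these data known. Alternatives were other scalings and sources of values, filters, probe rules, blocks and arrays left out. For normexp (offset 50) the median spot and background signals were used, since no mean signal was in the files, and spots with a flagged background took the median background of their array.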

Additional observations from a re-analysis of the deposited data

How the results depend on the processing

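The count of 10 guidance genes was 7 under 3 other sources of values (quantile normalization, median scaling, the series matrix), 5 higher and 2 lower in each. It was 9 when all 6 arrays had to be well above background, 10 with probes of a gene averaged or with outlier spots kept, and 8 with dim signals raised to the floor, an alternative chosen after seeing the data. With normexp it was 10, where 13.1% of all genes passed. Robo2 and Epha1 then passed, and Efnb3 and Sema3e did not. The guidance count was 4 with no filter, counted among the same 50 members, so that the 16 that fail the filter were left out. Counted likewise among the same 15535 genes, 474 or 3.05% passed. The guidance count was 2 with slide as a block and 6 with the replicate block, beside 1.16% and 4.46% of all genes. At a fitted fold of 1.5 or more it was 6 (Sema3e and Efnb3 among them, on signals not well above background), and 1 to 25 without 1 array. The count of 9 partner genes was 3 with slide as a block, 5 with no filter (of 53 then tested) and 3 to 16 without 1 array. Over all genes tested, 1669 passed, against 519 with no filter, 180 with slide as a block, 36 on slide 1 alone, 693 with the replicate block, 885 at 1.5-fold or more and 227 to 4611 without 1 array. Same-numbered replicates gave r of deviations of 0.0070, -0.11 and 0.12, and pairs of unlike number ran from -0.25 to 0.23. Whether the numbers pair the samples cannot be told from 3 arrays per group. Among all called genes the share higher was 60.1%. Median scaling gave 37.3%, the series matrix 41.3% and normexp 68.3%.

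For the 10 genes past the threshold the groups did not overlap, so leaving out arrays or adding blocks could not turn their sign. None of the 10 genes past the threshold changed sign under the other alternatives either. Members short of it that did, with slide as a block and equally on slide 1 alone, were Efna2 (-0.066), Efna5 (0.028), Ephb4 (-0.089), Plxnc1 (0.063), Sema3a (-0.042), Sema3b (-0.086), Sema4b (-0.27), Sema5a (-0.024), Sema6d (-0.11), Sema7a (-0.28). Median scaling turned Efna2 (-0.056), Efnb2 (-0.027), Sema3b (-0.048), Sema4b (-0.017), Sema7a (-0.049). Quantile normalization turned Sema3a (-0.063), Sema3b (-0.047), Sema7a (-0.048), and the series matrix Sema3a (-0.057), Sema3b (-0.042), Sema7a (-0.044). Normexp turned Plxnc1 (0.069) and averaged probes Plxnc1 (0.23). Without 1 array the ranges crossing 0 were -0.060 to 0.079 for Efna2, -0.060 to 0.066 for Efna5, -0.056 to 0.034 for Plxnc1, -0.021 to 0.10 for Sema3b, -0.21 to 0.036 for Sema3f, -0.11 to 0.24 for Sema4b, -0.13 to 0.20 for Sema7a, -0.44 to 0.39 for Slit1, -0.086 to 0.030 for Unc5b. The cause of these changes was not tested. Signal over background limits Efnb3, Sema3e, Plxnb3, Sema5b, Sema4g and Unc5c, each dim on at least 1 array.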

Other observations

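Genes that share part of a name with the guidance families without belonging to them were read as well, a choice made after values were seen. Of 10 such symbols (Plxdc, Ntng and Slitrk genes) 5 were tested, and 1 rose and 1 fell, beside 6.46% and 4.29% of all genes. Plxdc1, which encodes a plexin domain-containing membrane protein first described in tumour endothelium, was at 4.83%, 5.74% and 5.94% of the 75th percentile in De-HA and 28.0%, 25.8% and 25.3% in FeMnSi. Its paralog Plxdc2 went the other way, at 234%, 233% and 241% in De-HA and 148%, 134% and 145% in FeMnSi. The log2 fold changes were -2.26 ± 0.11 SE for Plxdc1 (adjusted p = 0.000934 in limma, -2.35 within slide 1, adjusted p = 0.00852 with slide as a block) and 0.73 ± 0.08 SE for Plxdc2 (adjusted p = 0.00733, 0.67 within slide 1, adjusted p = 0.0557 with slide as a block). The netrin G gene Ntng2 gave 0.32, and Slitrk3 and Slitrk6 gave 0.39 and -0.33, none past the threshold.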
